A study of Arabidopsis thaliana with 7 samples.

Results

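SOC1 is a MADS-box transcription factor of Arabidopsis thaliana that collects signals from day length, cold and gibberellin and turns on the genes that make a shoot apex flower. Repressors of flowering, among them MADS-box and AP2-type factors, hold it and its partners down in young plants. The comparison described here set soc1-101D, a gain-of-function mutant of SOC1, against its wild type. It took the 3 arrays labelled soc1-101D and the 3 labelled Col, 6 of the 7 arrays of the series, each mutant array paired with the Col array of the same experiment (experiments 1, 2 and 3).

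The soc1-101D seedlings carried the gain-of-function allele in the Col (Columbia) strain and are labelled as early flowering. The Col seedlings were wild type and, for experiments 1 and 2, are labelled as being at the vegetative stage. Both were whole seedlings harvested 7 days after germination, having grown at 21 °C with 16 h of light and 8 h of darkness a day. From general knowledge, and not from the labels, soc1-101D is an activation-tagged allele, in which inserted enhancer sequences drive the neighbouring gene. The labels describe 1 line per genotype and do not say that the experiments were separate plantings. The p-values here rest on the spread of the paired differences of the 3 experiments, which may be technical. The remaining array, soc1-2, a knock-out in the same strain, is 1 array of experiment 3. It is quoted only beside single probe sets and in 1 count.

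Each array gave 1 intensity for each of 22746 probe sets. The intensity was scaled to a common median of 192.7 and is called the scaled signal below. Differences are soc1-101D minus Col on the log2(scaled signal + 19.3) scale, which understates the change of dim probe sets. The ± after a difference is the SE of the limma fit, and 13648 probe sets were bright enough to be tested. Array medians ran from 178.75 to 206.8, and arrays of 1 experiment correlated at r of 0.954 to 0.978 across tested probe sets, against 0.824 to 0.929 between experiments. The gene table paired no probe set with SOC1 itself (locus AT2G45660, symbol AGL20 in the table), so its level under the allele is not given here by name. Leaf and root tissue were both represented. The 3 named photosynthesis genes (RCA, LHCB4.1 and LHCB4.2) had summed signals of 68621 to 90198 on soc1-101D arrays and 56138 to 95202 on Col arrays. For 3 root markers (PYK10, EXPA7 and EXPA18) the sums were 13711 to 22538 on soc1-101D arrays and 16810.2 to 22954 on Col arrays. The floral meristem gene UFO, the single floral organ gene with a name on the array, read at most 12.9 on soc1-101D arrays and at most 10.8 on Col arrays, below the pseudocount of 19.3.

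In soc1-101D seedlings 37 probe sets were higher and 37 lower than in Col at a limma adjusted p under 0.05, which is 0.271% of the tested probe sets in each direction and 0.542% in all. The floral repressor gene SMZ was among those that fell. So were a pair of genes for proteins with a TRAF-like domain, a lectin gene, a pair of lipase genes and a copper amine oxidase gene. Genes that rose included 3 neighbouring members of the CYP71B cytochrome P450 family, a chitinase gene and a gene of pipecolate synthesis. Of the 74 probe sets, 34 had 1 gene name, and 40 (54.1%, against 46.7% of all tested probe sets) did not. All 74 differed in the same direction in each of the 3 experiments. Of all 13648 tested probe sets, 1982 were higher and 2499 lower in all 3. The test itself favours differences that agree between experiments, so this agreement is no separate evidence. The scaled signals of soc1-101D and Col did not overlap across experiments for 26 of the 37 that rose and 27 of the 37 that fell, where 4.13% of all tested probe sets showed no overlap (1.71% with soc1-101D above Col and 2.42% below). In whole seedlings, fewer cells of a type and less RNA per cell cannot be told apart.

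Flowering regulators were few on the array by name, and 1 of them passed the test. SMZ (AT3G54990), an AP2-type repressor of flowering, read 133, 69.5 and 135 in soc1-101D of experiments 1, 2 and 3, against 589.8, 233 and 299 in Col. All 3 soc1-101D arrays lay below all 3 Col arrays. The difference was −1.52 ± 0.20, a fall of 2.86-fold (limma adjusted p = 0.0279), and it was −2.001, −1.51 and −1.05 in experiments 1, 2 and 3.

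Other floral repressors were too dim to be tested, and their values are a description. SNZ, the close AP2-type relative of SMZ, read 167, 87.2 and 39.6 in soc1-101D and 209, 153 and 119 in Col, lower in each experiment, though the ranges overlapped. AGL18, a MADS-box repressor, read 44.2, 61.4 and 38.9 in soc1-101D and 144, 99.2 and 159 in Col. The AGL18 signals of the genotypes did not overlap, and its differences were −1.37, −0.55 and −1.61. The other 21 listed repressors, FLC and SVP among them, had no probe set with a single gene name here.

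Of the promoters of flowering, 3 were tested and none passed, where 0.542% of all tested probe sets did. GI, which links the clock to day-length sensing, read 458, 2348 and 839.7 in soc1-101D and 399, 3001 and 1032 in Col, so that the experiments differed far more than the genotypes (−0.15 ± 0.17). Neither the RNA-processing factor FY (−0.08 ± 0.26) nor LD (−0.02 ± 0.16) passed the test. FD and AGL24, partners of FT and SOC1 at the shoot apex, were dim. FD read 19.1, 8.44 and 37.1 in soc1-101D and 89.0, 8.47 and 4.37 in Col. AGL24 read 8.57, 3.00 and 4.42 in soc1-101D and 11.6, 8.85 and 31.9 in Col. Its 2 groups did not overlap, but all but 1 signal lay below the pseudocount. Among the MADS-box relatives closest to SOC1, AGL42, AGL71, AGL72 and AGL19 were on the array by name, and none was bright enough to be tested. AGL19, for example, read 45.7, 65.7 and 4.85 in soc1-101D against 46.2, 30.3 and 29.5 in Col.

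**Figure D1:**
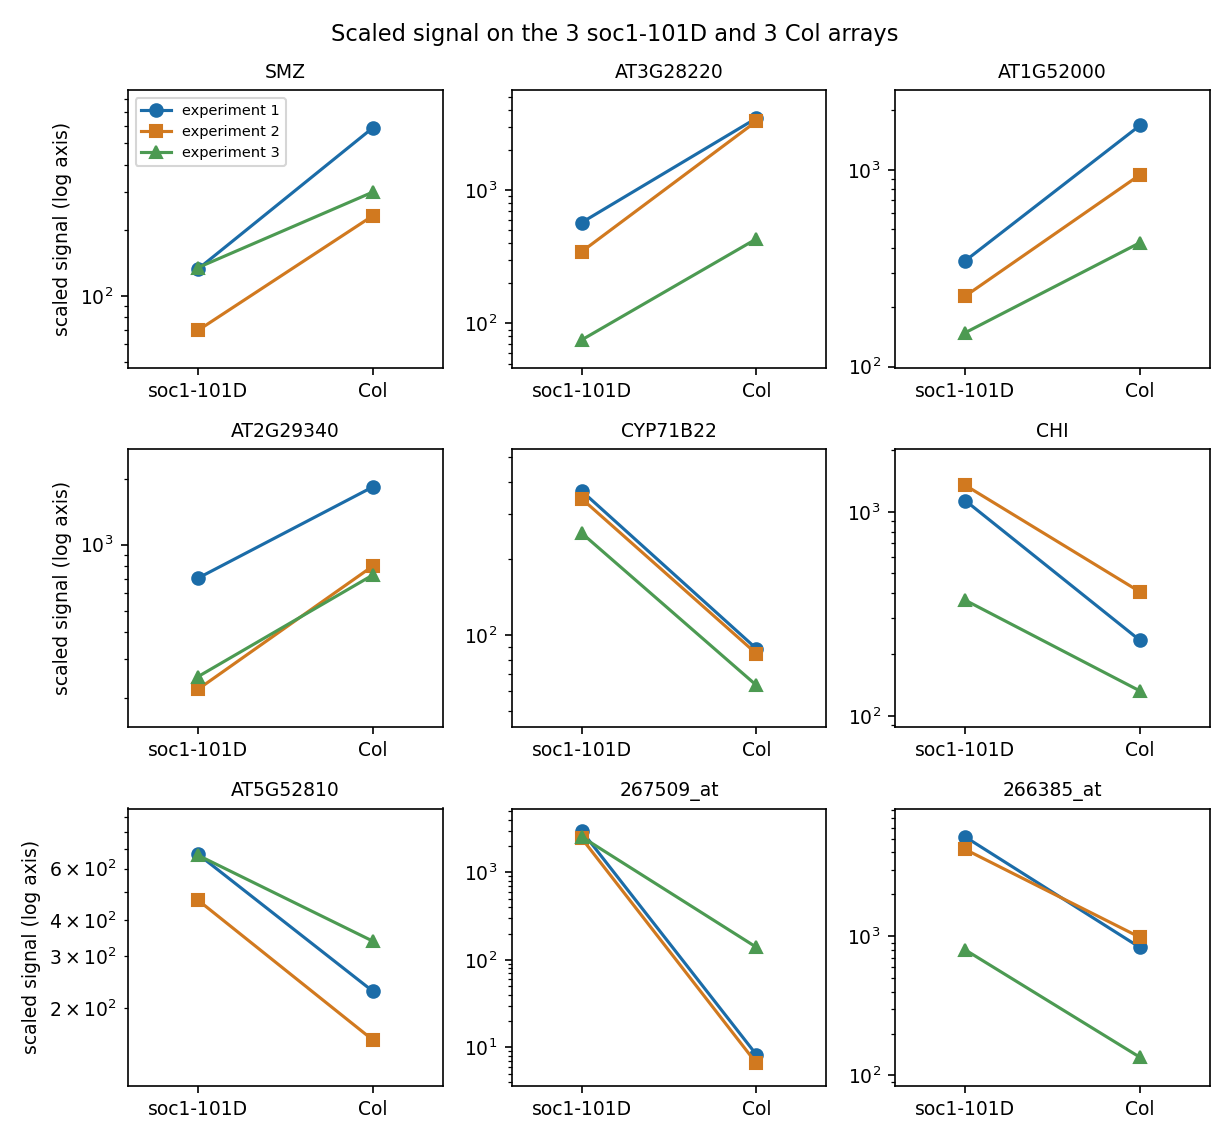
Scaled signal (log axis) of 9 probe sets past the test, on the soc1-101D and Col arrays, with a line joining the arrays of 1 experiment. SMZ, AT3G28220, AT1G52000 and AT2G29340 were lower in soc1-101D and the other 5 higher in every experiment, whereas the level itself moved between experiments, as for CHI and 266385_at.

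The CYP71B genes encode cytochrome P450 enzymes, a class that oxidises defence compounds and other small molecules. The table named 19 of 36 members, of which 10 were tested and 3 rose, against 0.271% of tested probe sets that rose. The filter on dim probe sets used soc1-101D arrays too, so a rise itself helped a dim member to be tested. CYP71B22 and CYP71B24 were dimmer in Col than CYP71B29, which was left out (108, 130 and 145 in Col). The count of 10 thus depends in part on the outcome, and the share that rose cannot be weighed against 0.271%. The 3 that rose carry the neighbouring locus numbers AT3G26200, AT3G26210 and AT3G26230. CYP71B22 (AT3G26200) read 369, 344 and 252 in soc1-101D and 88.4, 84.5 and 63.4 in Col, 3.46-fold higher (1.79 ± 0.14, limma adjusted p = 0.00592). Its 3 differences, 1.85, 1.81 and 1.71, were nearly equal.

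CYP71B24 (AT3G26230) read 239, 182 and 321 in soc1-101D and 63.1, 48.6 and 120.3 in Col (1.50 ± 0.15, limma adjusted p = 0.0113). CYP71B23 (AT3G26210) read 509, 682 and 556 in soc1-101D and 184, 224 and 291 in Col (1.26 ± 0.17, limma adjusted p = 0.0285). No soc1-101D array of the 3 genes reached down to the Col range. The other 7 tested members lay between −0.19 and 0.28, among them CYP71B26 (0.28 ± 0.14), CYP71B34 (−0.19 ± 0.16) and CYP71B6 (0.18 ± 0.14), and none passed. The 9 members left out as dim read at most 149.8 on any of the 6 arrays. The family median was 0.17, beside −0.02 over all tested probe sets. It was 0.31 without experiment 1, 0.16 without experiment 2 and 0.12 without experiment 3.

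Defence genes named on the array were likewise few. Of 31 listed genes of salicylate and pipecolate defence, the immune signals behind systemic resistance, 3 were tested and 2 rose, against 0.271% of tested probe sets that rose, with a list median of 1.30. With the 2 dim members kept as well, the median was 0.62. Of these, WRKY53, a senescence and defence regulator, read 173, 173 and 65.8 in soc1-101D and 59.0, 77.1 and 96.1 in Col, and its differences were 1.30, 1.00 and −0.44. GRX480, a glutaredoxin gene induced by salicylate, had differences of 0.36, 0.33 and −0.22. Both turned below 0 in experiment 3. The chitinase gene CHI (AT2G43570), whose product breaks down fungal cell walls, read 1136, 1349 and 369 in soc1-101D and 234, 405 and 132 in Col (1.74 ± 0.19, limma adjusted p = 0.0148). The lowest soc1-101D array lay inside the Col range, but each pair differed by 1.35 or more. AT5G52810, known as SARD4, encodes an enzyme of the last step to pipecolate. It read 671, 467 and 666 in soc1-101D and 228, 155 and 339 in Col (1.30 ± 0.17, limma adjusted p = 0.0276), with no overlap. The third, SAG101, a partner of the immune regulator EDS1, was at −0.35 ± 0.31, with a difference of −1.41 in experiment 1 and 0.37 in experiment 3. The members and lists were chosen with earlier results of these data known, so these counts are no independent evidence of a direction.

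Outside that list, 3 more genes that rose are given next, grouped after their values were seen. AT4G36010, which encodes a thaumatin-like protein of the pathogenesis-related type, read 126, 478 and 483 in soc1-101D and 41.3, 218 and 264 in Col (1.05 ± 0.15, limma adjusted p = 0.0357). AT5G24210, for a lipase-type hydrolase, read 2023, 862 and 684 in soc1-101D and 693, 259.6 and 307 in Col (1.43 ± 0.16). AT5G39670, for a calcium-binding EF-hand protein, read 408, 306 and 138 in soc1-101D and 122, 84.5 and 37.5 in Col (1.57 ± 0.14), with differences of 1.60, 1.65 and 1.47. These 2 had limma adjusted p of 0.0178 and 0.00954. For AT5G39670 every soc1-101D array exceeded every Col array, whereas for AT5G24210 and AT4G36010 the ranges overlapped.

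A further 3 genes that rose encode proteins of different kinds. AT5G17700, for a MATE-type efflux carrier, read 494, 439 and 904 in soc1-101D and 251, 214 and 422 in Col, a difference of 0.99 ± 0.14 (limma adjusted p = 0.0345) with little spread (0.93, 0.97 and 1.06). AT3G28540, for an AAA-type ATPase, read 315, 164 and 193 in soc1-101D and 97.5, 87.6 and 57.6 in Col (1.25 ± 0.19, limma adjusted p = 0.0386). AT5G22460, for an alpha/beta hydrolase, read 334, 379 and 446 in soc1-101D and 137, 188 and 118 in Col (1.29 ± 0.19, limma adjusted p = 0.0353). In all 3 the groups stood apart.

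The smallest rise among named genes was in AT3G18250, at 581, 605 and 357 in soc1-101D and 312, 302 and 176 in Col (0.92 ± 0.14, limma adjusted p = 0.0428). AT1G65500, AT1G64360 and AT2G25735, whose products have no role that can be given here, rose by 1.47 ± 0.22, 1.40 ± 0.18 and 1.36 ± 0.15. AT1G65500 had its smallest difference in experiment 3 (0.83, against 1.82 and 1.77). AT2G25735 read 222, 351 and 313 in soc1-101D and 59.5, 139 and 121 in Col, and its 256 on the soc1-2 array was also above the 3 Col arrays.

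**Figure D2:**
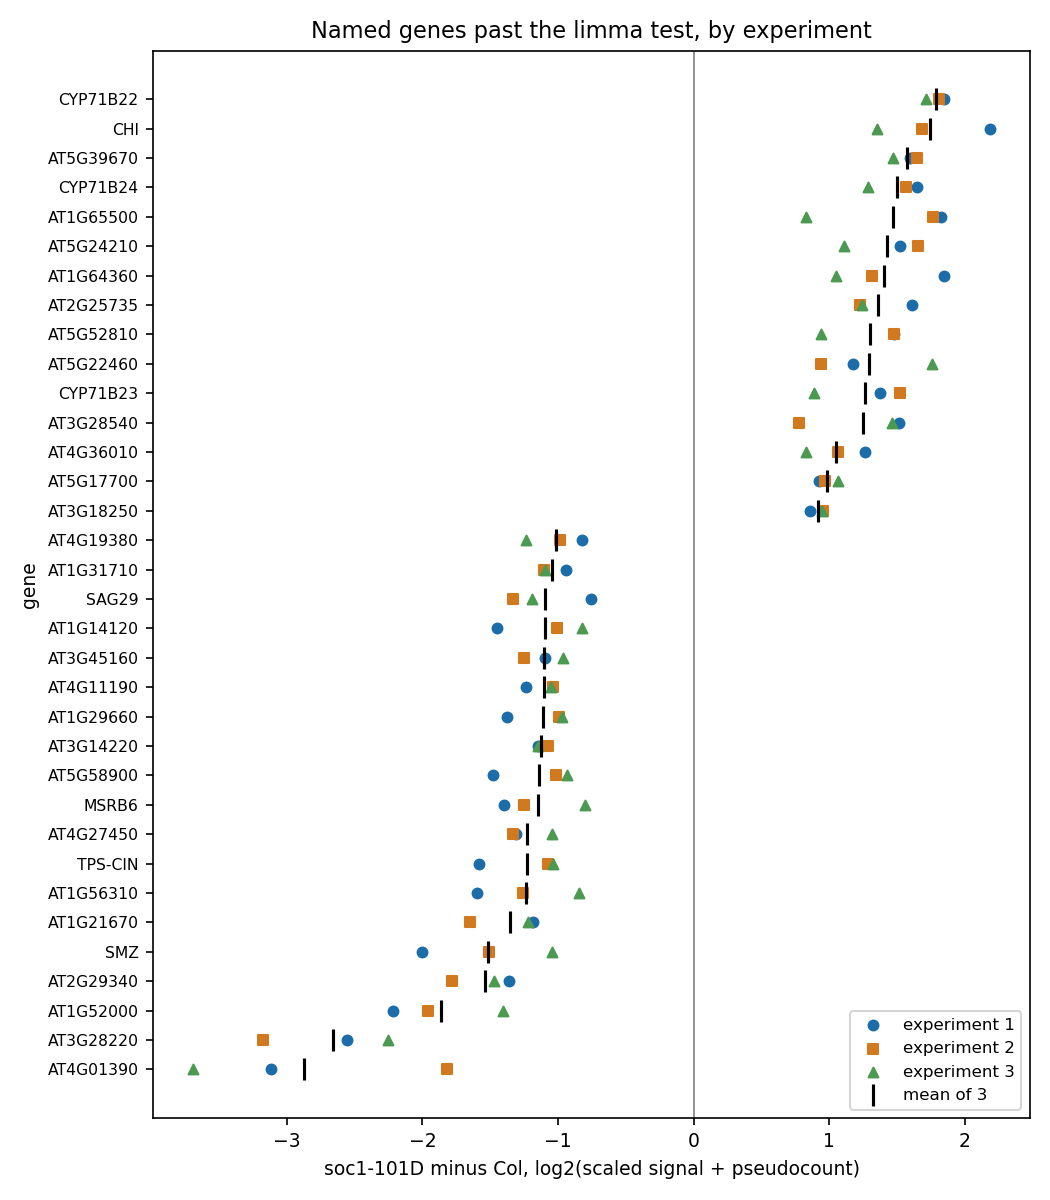
Difference soc1-101D minus Col (log2 of scaled signal plus pseudocount, horizontal) for the 34 named genes past the test, with 1 marker per experiment and a bar at the mean of 3. All markers of a gene lie on 1 side of 0. CYP71B22 and AT3G14220 show little spread, and AT4G01390 a wide one.

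Among named genes past the test, the 2 with the lowest means encode proteins with a TRAF-like domain, a fold that binds other proteins. AT3G28220 read 572, 346 and 75.2 in soc1-101D and 3463, 3283 and 430.5 in Col (−2.66 ± 0.20, limma adjusted p = 0.00592). AT4G01390 read 38.9, 252 and 7.65 in soc1-101D and 484, 937 and 328 in Col (−2.87 ± 0.32, limma adjusted p = 0.0162). The last of its soc1-101D signals lies below the pseudocount, so that difference depends on it. Both genes were at their lowest in experiment 3 in each genotype.

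A lectin gene and a pair of lipase genes also fell. AT1G52000, for a jacalin-type lectin, read 345, 228 and 149 in soc1-101D and 1678, 942 and 426 in Col (−1.86 ± 0.19, limma adjusted p = 0.0113). AT3G14220, for a GDSL-type lipase, read 793, 849.8 and 875 in soc1-101D and 1779, 1813 and 1960.5 in Col. Its difference of −1.12 ± 0.14 (limma adjusted p = 0.0237) was the same to within 0.1 in every experiment (−1.15, −1.08 and −1.15). AT1G29660, another GDSL-type lipase gene, read 1677, 1091 and 1448 in soc1-101D and 4389, 2184 and 2853 in Col (−1.11 ± 0.16, limma adjusted p = 0.0330). In the 3 genes no soc1-101D array reached the Col range.

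Of the other named genes that fell, 5 for enzymes are given next. AT2G29340, for a short-chain dehydrogenase of the tropinone reductase type, read 704, 219 and 249.7 in soc1-101D and 1836, 799 and 727 in Col (−1.54 ± 0.15, limma adjusted p = 0.0113). AT1G31710, for a copper amine oxidase, read 469.9, 763 and 485 in soc1-101D and 920.4, 1659 and 1061 in Col (−1.05 ± 0.14, limma adjusted p = 0.0290). AT4G19380, for a long-chain fatty alcohol dehydrogenase, read 89.2, 70.1 and 62.1 in soc1-101D and 172, 157 and 172 in Col (−1.01 ± 0.15, limma adjusted p = 0.0405). MSRB6, for a methionine sulfoxide reductase, read 871, 548 and 768 in soc1-101D and 2325, 1329 and 1355 in Col (−1.15 ± 0.17, limma adjusted p = 0.0354). AT1G14120, for a dioxygenase that uses 2-oxoglutarate, differed by −1.10 ± 0.17 (limma adjusted p = 0.0446). In none of these 5 genes did the signals of the genotypes overlap.

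Secondary metabolism and cell-wall proteins were represented by TPS-CIN and AT4G11190. TPS-CIN, for the terpene synthase that makes 1,8-cineole, read 47.4, 154 and 61.9 in soc1-101D and 180.2, 346 and 147 in Col (−1.23 ± 0.17, limma adjusted p = 0.0285). AT4G11190, for a dirigent-type protein, which steers the coupling of lignan precursors, read 163, 402 and 189 in soc1-101D and 409.6, 843 and 412 in Col (−1.11 ± 0.14, limma adjusted p = 0.0276). Its Col signals all exceeded its soc1-101D signals, which did not hold for TPS-CIN.

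Genes for a MYB-type regulator and a sugar transporter were also among the named genes that fell. AT5G58900, for a MYB-related protein, read 60.2, 164 and 352 in soc1-101D and 202, 351 and 689 in Col (−1.14 ± 0.17, limma adjusted p = 0.0353). SAG29, a sugar transporter gene induced in senescence and by abscisic acid, read 652, 120.4 and 6.90 in soc1-101D and 1116, 332 and 40.4 in Col (−1.09 ± 0.17, limma adjusted p = 0.0408). For SAG29 both genotypes were highest in experiment 1 and lowest in experiment 3, and the ranges overlapped. The remaining named genes that fell were AT1G21670 (−1.35), AT1G56310 (−1.23), AT4G27450 (−1.23) and AT3G45160 (−1.10), with limma adjusted p of 0.0192, 0.0353, 0.0204 and 0.0279.

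The widest difference on the arrays was in a probe set that the gene table does not name. Probe set 267509_at read 2971, 2457 and 2553 in soc1-101D and 8.26, 6.59 and 139 in Col. The soc1-101D signals differed little between experiments, and the Col signals of experiments 1 and 2 lay below the pseudocount. The difference was 5.79 ± 0.48 (limma adjusted p = 0.00655), whose size would be another with another pseudocount. On the soc1-2 array this probe set read 14.3, against 139 in Col of the same experiment, but within the range of the Col arrays.

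Probe set 266385_at read 5159, 4195 and 797 in soc1-101D and 830.2, 982 and 135 in Col (2.36 ± 0.16, limma adjusted p = 0.00592). Its level in experiment 3 was far lower in both genotypes, yet the 3 differences were alike (2.61, 2.07 and 2.40). It read 26.1 on the soc1-2 array, a difference from Col of −1.77 with 1 array and no test. Both mutants share the Col array of experiment 3, so these values are not independent.

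Other unnamed probe sets rose about as far. Probe set 252170_at read 2502, 1177 and 2025 in soc1-101D and 302, 130.1 and 546 in Col (2.61 ± 0.24, limma adjusted p = 0.00954). Probe set 259561_at read 1811, 906 and 931 in soc1-101D and 189.8, 204 and 233 in Col (2.37 ± 0.24, limma adjusted p = 0.0119). In both, all soc1-101D arrays exceeded all Col arrays. Probe set 265837_at read 4674, 2764 and 2146 in soc1-101D and 1168, 469.9 and 372 in Col (2.32 ± 0.16, limma adjusted p = 0.00592), also without overlap. The next were 266070_at (2.14 ± 0.20), 257382_at (1.85 ± 0.22), 245265_at (1.75 ± 0.16), 246293_at (1.66 ± 0.22) and 248197_at (1.61 ± 0.23). Over the 22 unnamed probe sets that rose, the differences ran from 1.07 to 5.79 with a median of 1.55, and over the 15 named ones from 0.92 to 1.79 with a median of 1.36.

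Among the unnamed probe sets that fell, 248337_at came first, at 283, 337 and 229.9 in soc1-101D and 775, 4337 and 1352 in Col (−2.49 ± 0.36, limma adjusted p = 0.0345). Its differences of −1.40, −3.61 and −2.46 followed the Col level, which was highest in experiment 2. Probe set 246481_s_at, paired with several genes, read 1485, 4437 and 3018 in soc1-101D and 5424, 18094 and 15797 in Col (−2.09 ± 0.16, limma adjusted p = 0.00592). Probe set 260037_at read 478, 629 and 352 in soc1-101D and 1322, 3611 and 1289 in Col (−1.91 ± 0.21, limma adjusted p = 0.0162). No soc1-101D array of these 3 came up to the lowest Col array. On the soc1-2 array they read 3592, 26610.2 and 4353, each above Col of experiment 3. The value of 248337_at was below Col of experiment 2, however. Of the 74 probe sets past the test, 46 had a soc1-2 signal within the Col range. That range spans all experiments, and the share of all tested probe sets within it was not counted. The count is thus no result about the 74. The soc1-2 values quoted are those of single probe sets and do not describe the whole set.

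The next in size were 262830_at (−1.80 ± 0.26), 264057_at (−1.74 ± 0.22), 260070_at (−1.72 ± 0.17), 264508_at (−1.56 ± 0.15), 253411_at (−1.44 ± 0.16), 252168_at (−1.42 ± 0.20) and 267545_at (−1.38 ± 0.18). In each of them, every soc1-101D array lay below every Col array. The 18 that fell without a single gene ran from −2.49 to −0.99 with a median of −1.40, and the 19 named ones from −2.87 to −1.01 with a median of −1.15.

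**Figure D3:**
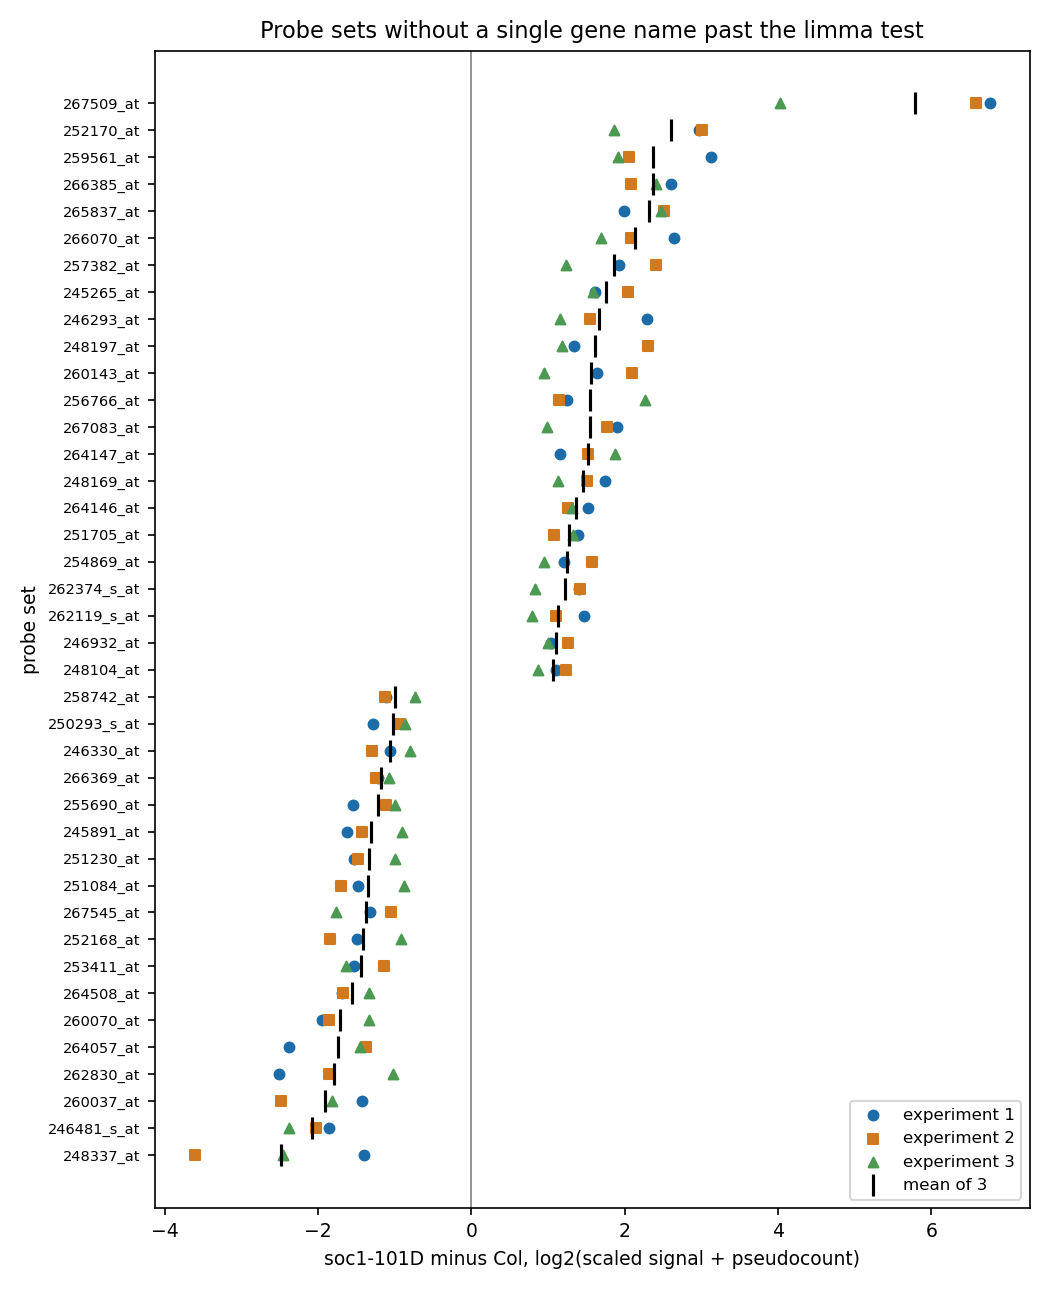
Difference soc1-101D minus Col (log2 of scaled signal plus pseudocount, horizontal) for the 40 probe sets past the test without a single gene name, with 1 marker per experiment and a bar at the mean of 3. Probe set 267509_at stands far to the right at 5.79, and its marker of experiment 3 (4.02) lies left of those of experiments 1 and 2 (6.76 and 6.58).

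The 3 experiments gave differences of unequal width. Over all tested probe sets the differences had an SD of 0.44, 0.45 and 0.33 in experiments 1, 2 and 3. A change of 2-fold or more was reached upward by 201 probe sets and downward by 295 in experiment 1. In experiment 2 these numbers were 229 and 255, and in experiment 3 they were 71 and 98. Experiment 3 also gave the smallest of the 3 differences for 49 of the 74 probe sets past the test.

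The experiments use separate arrays throughout, so their differences can be set against each other as a description. Across the 13648 probe sets they correlated at r = 0.29 (experiments 1 and 2), 0.30 (1 and 3) and 0.27 (2 and 3). Of the probe sets at least 2-fold higher in experiment 1, 34.8% were so in experiment 2 as well, which is 30.6% of those in experiment 2. For at least 2-fold lower the shares were 22.7% and 26.3%. Experiments 1 and 3 shared 31 of the higher and 30 of the lower, which is 15.4% and 10.2% of those in experiment 1 and 43.7% and 30.6% of those in experiment 3.

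A rule by size alone, at least 2-fold in each of the 3 experiments, took 26 higher (0.191% of tested) and 21 lower (0.154% of tested). Of these, 23 and 20 also passed limma. The 4 that did not were named after their values were seen. AT5G44400, for a berberine-bridge type oxidase, read 146, 393 and 37.9 in soc1-101D and 513, 1057 and 944 in Col (−2.38 ± 0.46, limma adjusted p = 0.0900). AT3G16530, for a legume-type lectin, read 8248, 5023 and 5759 in soc1-101D and 3839, 1098 and 2763 in Col (1.44 ± 0.23, limma adjusted p = 0.0547). Both separated the genotypes without overlap. AT3G16670 was at 1.79 ± 0.32 (limma adjusted p = 0.0805) and 259813_at at 2.01 ± 0.33 (limma adjusted p = 0.0547). A further 20 higher and 9 lower by the same rule were among the 9098 probe sets left out as dim, where low signals make the size uncertain.

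Some named genes had a large mean difference but unequal differences between experiments. Of 80 named probe sets with a mean of at least 1 in size, 48 did not pass the test. The 10 with the widest spread of their 3 differences were all among these. The test weighs the mean against that spread, so this follows largely from the test. AT5G55450, for a lipid-transfer type protein, read 1465, 2394 and 905 in soc1-101D and 272, 374 and 930.4 in Col. Its differences were 2.35, 2.62 and −0.04, and its mean of 1.64 ± 0.45 did not pass (limma adjusted p = 0.219). AT4G12490, another gene for a lipid-transfer type protein, had differences of 1.90, 1.89 and 0.17. AT2G43620, a chitinase-family gene, had differences of 2.22, 1.81 and 0.34.

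AT2G43620 read 2425, 1859 and 5744 in soc1-101D and 507, 516 and 4548 in Col, so both genotypes were highest in experiment 3. AT3G28270 was lower by −2.68 and −2.09 in experiments 1 and 2 and level in experiment 3 (−0.08). AT3G47980 changed sign, at 0.61, −1.22 and −3.07. AT3G55710, for a UDP-glycosyltransferase, had a single wide difference, 3.22 in experiment 2, where Col read 8.00. HIS1-3, a linker histone gene induced by drought, was at −1.24, −2.25 and −0.16. The list also held COR15A, COR15B and AT5G44400. Without experiment 3 the means were 2.49 for AT5G55450, 1.89 for AT4G12490, 2.01 for AT2G43620, −2.39 for AT3G28270, −1.54 for AT5G44400 and −1.75 for HIS1-3, and limma called them. These genes were picked for their spread between experiments, so their passing without 1 experiment is no evidence of a change.

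The cold regulon list comprises genes switched on at low temperature, some but not all of them by CBF factors. It had no member past the test among 6 tested, where 0.542% of all tested probe sets passed. The list median was −0.63, beside −0.02 over all tested probe sets. All 6 means were below 0. COR47, a dehydrin gene, read 1889, 6044 and 4619 in soc1-101D and 3246, 12516 and 5416 in Col (−0.68 ± 0.19, limma adjusted p = 0.210). AT4G33980, known as COR28, read 19.4, 391 and 450.5 in soc1-101D and 50.7, 551 and 603 in Col (−0.58 ± 0.16, limma adjusted p = 0.210). COR27, its partner in the clock and cold response, read 7.55, 372 and 882 in soc1-101D and 16.0, 525 and 764 in Col (−0.22 ± 0.18). Levels of these 3 genes were lowest in experiment 1 in both genotypes. COR15A had a mean of −2.90 ± 0.61 (limma adjusted p = 0.115). It passed in 4 of the 14 alternatives, with the larger pseudocount, with the dimmest 60% left out, with an intensity trend and without experiment 1 (−3.94), and its adjusted p over the alternatives ran from 0.0292 to 1.00.

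Genes encoded in the plastid genome, most of them for photosynthesis and for plastid gene expression, had a median of −0.37 over 68 tested probe sets. Of these 61 were below 0, as were 7484 of all 13648 tested probe sets. None passed the test, which 0.542% of all tested probe sets passed. The median was −0.51 in experiment 1, 0.05 in experiment 2 and −0.52 in experiment 3, so experiment 2 did not share the shift. The median was −0.22 without experiment 1, −0.54 without experiment 2 and −0.24 without experiment 3. Without experiment 2, psbN, for a small protein of photosystem II assembly, passed (−1.10, limma adjusted p = 0.0464). The lowest p was that of ndhH, a subunit of the plastid NADH dehydrogenase-like complex, at 327, 320.3 and 38.1 in soc1-101D and 655, 482 and 87.5 in Col (−0.81 ± 0.15, limma adjusted p = 0.0889). The psbA gene for the D1 protein of photosystem II was at −0.56 ± 0.16, with all soc1-101D arrays below all Col arrays. It was the only 1 of the 68 without overlap, whereas 2.42% of all tested probe sets had soc1-101D wholly below Col. The nuclear photosynthesis genes RCA (0.09 ± 0.15), LHCB4.1 (0.05 ± 0.15) and LHCB4.2 (0.16 ± 0.16) did not pass either.

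Several large families had no member past the test, which 0.542% of all tested probe sets passed. With so few members tested, a count of 0 is no result about a family. In 23 tested genes for UDP-glycosyltransferases, which attach sugars to hormones and metabolites, the median was 0.03, with 12 above and 11 below 0. UGT85A5 (−0.70 ± 0.15), UGT72B3 (−0.73 ± 0.18) and UGT87A2 (−0.90 ± 0.24) had the smallest p, with limma adjusted p of 0.114, 0.170 and 0.206. UGT87A2 passed without experiment 2 (−1.28, limma adjusted p = 0.0111). In 11 tested genes for glutathione transferases the differences ran from −0.29 (GSTU27) to 0.40 (GSTU25). In 4 tested WRKY genes, regulators of defence, WRKY22 was at 0.47 ± 0.18 (limma adjusted p = 0.366), and its 238, 147 and 128 in soc1-101D lay above the 120.5, 124 and 98.0 in Col.

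The neighbours of SOC1 were looked at because an inserted enhancer can act on more than 1 gene. Of the 10 genes before and the 10 after SOC1 by locus number, only 10 had a probe set with a single gene name. The other neighbours may be among the unnamed probe sets, so a change in them would not be seen here. Of the named neighbours 8 were tested and none passed, where 0.542% of all tested probe sets did. Their differences ran from −0.37 to 0.27 with a median of −0.16. AT2G45670 had the lowest value (−0.37 ± 0.17) and AT2G45590 the highest (0.27 ± 0.14). The labels do not place the insertion.

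Lists for sugar starvation, flavonoids, gibberellin, jasmonate, glucosinolates, the clock and rapid stress had 1 to 3 tested members each and none past the test. With so few tested, and 0.542% of all tested probe sets passing, that is no result about a list. The sugar-starvation gene AKINBETA1 was at −0.39 ± 0.19, while AT2G20670 was at −0.28 and −1.16 in experiments 1 and 2 and at 1.05 in experiment 3. DFR, an enzyme gene of anthocyanin synthesis, read 1149, 131 and 89.7 in soc1-101D and 777, 139 and 90.4 in Col (0.16 ± 0.17). STZ, a zinc finger repressor of the stress response, was at 0.44 ± 0.19 and ORA47, a jasmonate regulator, at 0.42 ± 0.28. GID1A, a gibberellin receptor gene, was at −0.15 ± 0.16, and BCAT4, for the first step of methionine-derived glucosinolates, at −0.17 ± 0.17. In 8 lists, among them heat shock, the cell cycle and seed storage, no member could be tested.

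**Figure D4:**
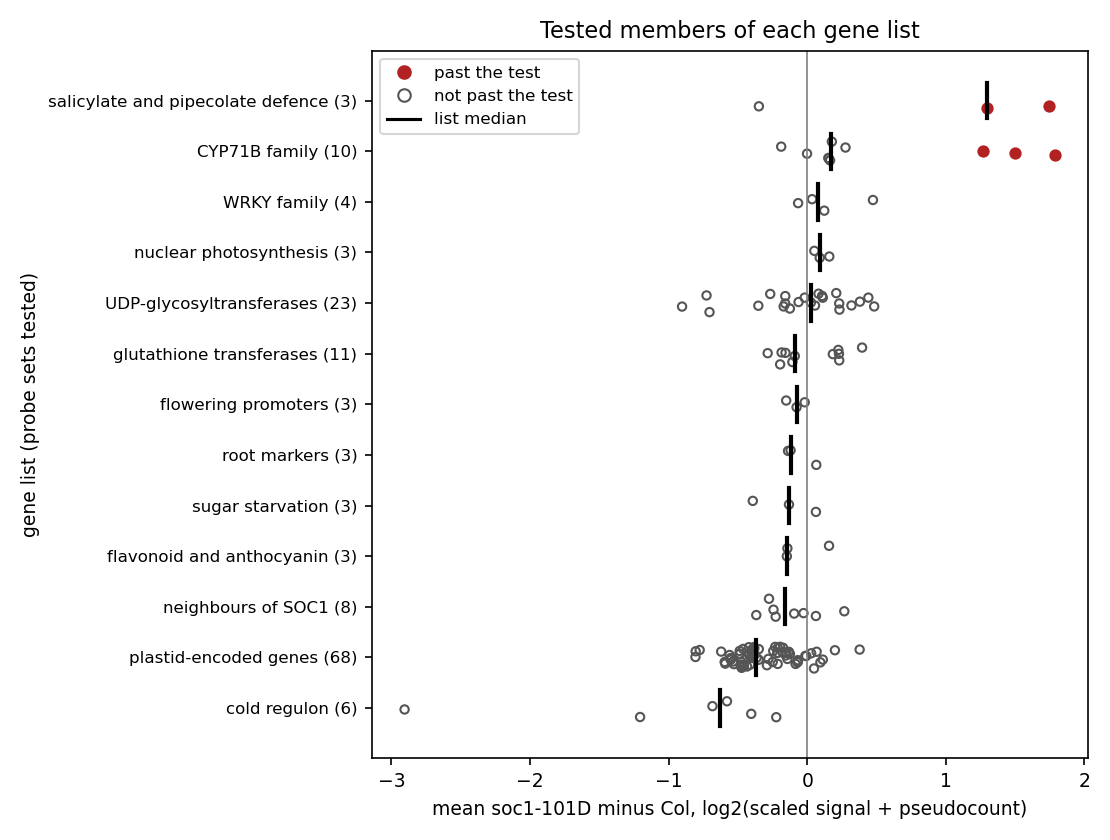
Mean difference soc1-101D minus Col (log2 of scaled signal plus pseudocount, horizontal) of each tested probe set in the 13 gene lists with at least 3 tested, with a bar at the list median. Filled points passed the test: 3 of the CYP71B family and 2 of the salicylate and pipecolate list; the plastid-encoded genes and the cold regulon lie mostly left of 0, with COR15A at −2.90.

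The number of probe sets past the test depended strongly on the processing. Without the experiment block limma called 0. At an unadjusted p below 0.05 it then found 222 probe sets, compared with 1504 when the block was kept. With all probe sets kept, or with the dimmest 20% left out, it also called 0 (1714 and 1637 unadjusted). Leaving out experiment 1 gave 16, of which 14 were among the 74, and quantile normalization gave 19, all of them among the 74. An intensity trend in the variance prior gave 170, which held 72 of the 74. Of the 74 probe sets, 57 passed in at least 8 of the 14 alternatives, and 9 passed in 11. Those 9 included AT3G28220 and AT2G29340 among named genes and 266385_at, 265837_at, 252170_at and 259561_at among the others. SMZ passed in 8, CYP71B22 in 10, and SAG29 and AT4G19380 in 2.

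**Figure D5:**
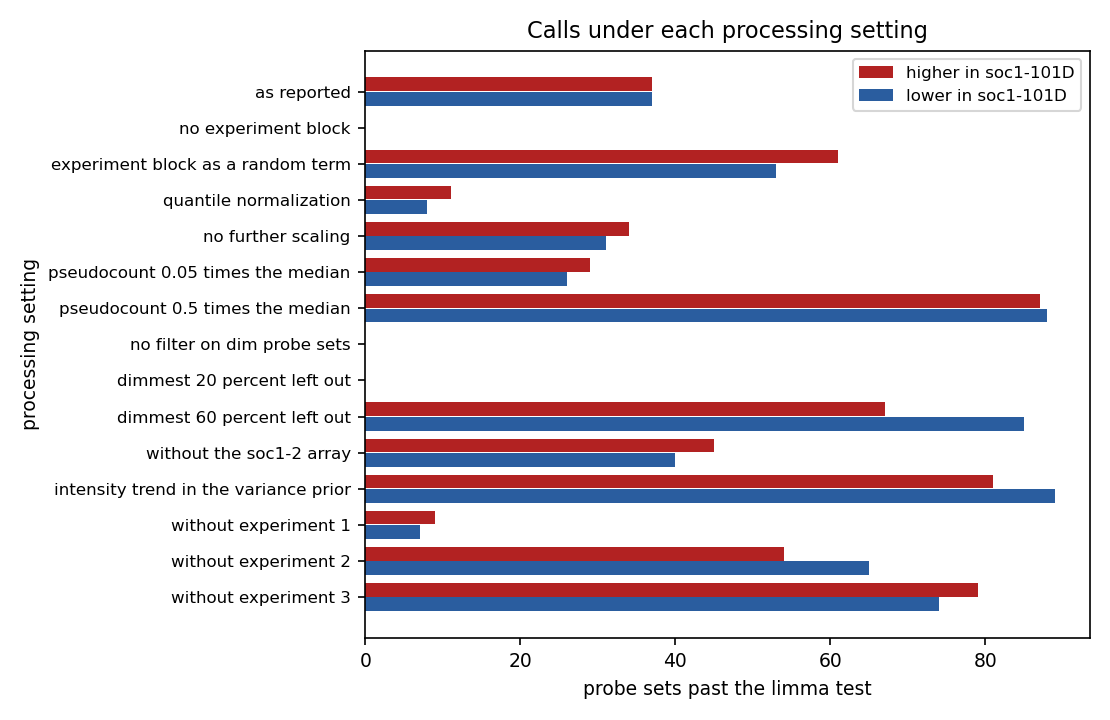
Number of probe sets past the limma test (horizontal) that were higher or lower in soc1-101D, as reported (37 each) and under 14 other settings. None passed without the block, with no filter or with the dimmest 20% left out, and the largest counts, 87 and 88, came with a larger pseudocount and 81 and 89 with an intensity trend.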

How the data were processed

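RNA from whole seedlings was hybridised, biotin-labelled, to 1-colour arrays, with each sample on its own array. The deposited table gives 1 intensity per probe set on a linear scale. The software behind them is not given in the sources here, and the trimmed means of the arrays lie close together, at 495.5 to 496.2. Scaled signals came from dividing each array by its median. The dimmest 40% of probe sets by mean log2 value were left out. Testing used lmFit and eBayes of limma 3.58.1 (R 4.3.3) on all 7 arrays, with genotype and experiment as fixed terms, and p-values were adjusted by Benjamini-Hochberg. Residual degrees of freedom were 2, with 5.62 from the prior. The soc1-2 array has a term of its own and enters the soc1-101D difference only through the filter and the scaling.

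Experiment was kept as a block because the label descriptions give, as baseline, the same-experiment Col array. Deviations from the group mean correlated at r = 0.85, 0.74 and 0.82 within experiments (paired arrays). The main setting was also run on simulated arrays with independent noise and known changes in bright probe sets only. Its outcome is not given here and does not bear on the other settings.

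Genes came from a table of platform annotation, with a single gene at 13513 probe sets, more than 1 at 503 and no gene at 8730. Symbols were updated for 13484 through a RefSeq table of the assembly TAIR10.1. No build is named for the arrays, so positions are not given, and sequences were not used here. A planned look at promoter motifs was therefore not made.

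Genes named in the text are all named calls, the 10 widest unnamed calls in each direction, up to 6 members per list by p, the 10 widest-spread named genes with a mean of at least 1 in size, and all flowering regulators on the array, 128 in all, of which the text gives those that bear on a comparison. Members and lists were chosen with earlier results of these data known. The 28 lists held 828 genes, of which 156 were tested.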

Additional observations from a re-analysis of the deposited data

How the results depend on the processing

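The total of 74 calls (37 higher, 37 lower) changed with most alternatives, and the cause was not tested except where the construction shows it. Without the replicate block the counts were 0, 0 and 0 (called, higher, lower), as they were with no filter and with the dimmest 20% left out. With the replicate block as a random term they were 114, 61 and 53. Quantile normalization gave 19, 11 and 8. A pseudocount of 0.5 times the median gave 175, 87 and 88, leaving out the dimmest 60% gave 152, 67 and 85, and an intensity trend in the prior gave 170, 81 and 89. Leaving out 1 experiment gave 16 (without experiment 1) to 153 (without experiment 3) calls, 9 to 79 higher and 7 to 74 lower, with 119 without experiment 2, and these fits have 1 pair fewer. No further scaling, a pseudocount of 0.05 times the median and leaving out the soc1-2 array gave 65, 55 and 85 calls.

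No named call changed direction in any of the 14 alternatives. Each had the same sign in all 3 experiments, so leaving out 1 experiment could hardly turn its mean. Several other settings leave the difference itself unchanged, so the kept direction is no separate evidence. Of 120 named results that were tested, 15 that had not passed changed sign. With 1 experiment left out, FY ranged from −0.36 to 0.35, LD from −0.15 to 0.13, GID1B from −0.17 to 0.13, LHCB4.1 from −0.0399 to 0.14, AT4G14090 from −0.19 to 0.17, UF3GT from −0.10 to 0.13 and AT2G20670 from −0.72 to 0.39. The ranges were −0.37 to 0.30 for AT3G15450, −0.30 to 0.19 for EXPA18, −0.25 to 0.42 for EXPA7, −0.18 to 0.44 for WRKY47, −0.0766 to 0.0940 for WRKY20, −0.41 to 0.11 for AT2G45750 and −0.23 to 0.12 for AT2G45600. SAG101 was bright enough to be tested in 1 of these fits, without experiment 1, at 0.18. LD was also at 0.0135 with quantile normalization and 0.00808 with no further scaling. Signals under the pseudocount of 19.3 limit the size of differences in dim probe sets, and 3 pairs of arrays limit how precise any difference can be.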
